A study of Homo sapiens with 12 samples.

Results

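The poly(A) sites described here lie in the histone gene clusters of human chromosome 6. They are all sites on either strand of hg19 from position 26015000 to 26290000 (the first interval) and from 27770000 to 27870000 (the second interval), 375 kb together, with at least 1 read in any library of a table. The choice used position only. It gave 188 of the 640413 sites in the pull-down table and 159 of the 189010 sites in the table of cell fractions. At the outer limits, the nearest site inside each interval and the nearest outside it had between 1 and 7 reads in both tables, so no well-read site lay at an edge.

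The study measured where polyadenylated RNAs end, and how many reads each end has, in RNA bound by Staufen1 (STAU1) and in cell fractions, using 3'READS+, a method that captures RNA on oligo(dT) and sequences the stretch just before the poly(A) tail. The cells were HEK293T, an established human embryonic kidney line. All 8 pull-down libraries came from 1 line in which STAU1 had been knocked out by paired nicks with a Cas9 nickase, so that endogenous STAU1 was targeted in the controls as well. These cells transiently carried STAU1-FLAG or FLAG-GFP. RNA pulled down with an anti-FLAG antibody (IP) and total poly(A)+ RNA without antibody (input) were sequenced for each, which makes 4 groups of 2 libraries: STAU1 IP, STAU1 input, GFP IP and GFP input. The fractions were cytoplasmic and polysomal poly(A)+ RNA of the same knockout line and of its isogenic wild-type control, with no transfection named in the labels and 1 library each. Replicates are numbered in the labels, which do not say that they came from separate cultures. The p-values therefore cover only the spread among these libraries, which may be technical.

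Most histone mRNAs made in S phase do not carry a poly(A) tail. Their ends form at a conserved stem-loop that is bound by the stem-loop-binding protein, and the downstream RNA is cleaved off with the help of the U7 small nuclear RNA. Some histone transcripts that are not cut there end at a poly(A) site instead, and only such ends, with those of other genes in the region, can be seen after capture on oligo(dT). STAU1 is a double-stranded-RNA-binding protein known for its part in mRNA decay, transport and translation. RefSeq (GRCh38.p14) lists 55 protein-coding genes of the H1, H2A, H2B, H3 and H4 families on chromosome 6 by symbol: 6 for the linker histone H1, and 12, 15, 10 and 12 for the core histones H2A, H2B, H3 and H4, which form the nucleosome. The count tables give only chromosome, strand and position in hg19, so no site was paired with one of these genes, and a site in the intervals may belong to another gene. For the same reason neither the level of STAU1 itself in the knockout nor marker genes of the cell line were analysed here.

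The pull-down libraries held between 1245270 and 9655646 reads, with the GFP IP libraries the shallowest at 1291888 and 1245270. STAU1 input replicate 1 had few sites for its depth, with 5567893 reads at 99156 sites. STAU1 IP replicate 2, at 5727812 reads, had 188458 sites. STAU1 input replicate 2, with 9655646 reads, had 175098 sites, and the STAU1 inputs reached 23 and 49 histone cluster sites. The shallower GFP IP libraries had 74715 and 81173 sites and reached 26 and 20 histone cluster sites. The 4 fraction libraries held between 2799226 and 3483937 reads. Levels below are in CPM, reads at a site scaled to a common library size, after TMM, a scaling of libraries on the bulk of shared sites. In bulk RNA, fewer cells with a transcript and less of it per cell cannot be told apart. Each table was scaled by itself, so levels are not compared across tables. Intervals and floors below cover counting error only, because reads made by PCR are not independent molecules, and a count of 0 was read as allowing up to 3 reads.

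Histone cluster ends were dense, with fewer reads per site on average than elsewhere. The pull-down table had 50.1 sites per 100 kb in the intervals, against 19.6 over the rest of chromosome 6 and 39.7 in the stretch between the intervals. Reads went the other way, with 547 per 100 kb in the intervals, 752 over the rest of chromosome 6 and 1774 in between. The fractions gave 42.4 sites per 100 kb against 6.28 over the rest of the chromosome and 25.6 between the intervals. Their reads per 100 kb were 285, 297 and 577. Sites were therefore dense for the number of reads they held.

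Of the 188 pull-down sites, 87 (46.3%) rested on 1 read, against 60.2% of the other chromosome 6 sites, and 128 (68.1%) were seen in 1 library only, against 73.9%. The median was 2 reads per site against 1 elsewhere on the chromosome, while the mean was 10.9 against 38.3. The most-read site elsewhere on the chromosome had 113575 reads. Only 2 sites (1.06%) had reads in all 8 libraries, against 2.42% of the others, and 3 (1.60%) had 100 reads or more, against 2.37%. A few ends held most reads: the most-read site held 493 of the 2053 reads, the 3 most-read 50.4% and the 10 most-read 64.4%. The 588 sites between the intervals were more concentrated, with 59.1% of reads at the 3 most-read and 76.0% at the 10 most-read. The far larger set of other chromosome 6 sites had 19.4% and 33.3%. In the fractions, 88 of 159 sites (55.3%) had 1 read, 18 (11.3%) were seen in all 4 libraries against 17.1% of other chromosome 6 sites, and the 3 most-read sites held 38.1% of 1070 reads.

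By strand, the first interval had 60 plus-strand sites with 891 reads and 61 minus-strand sites with 764 reads in the pull-downs. The second interval had 37 plus-strand sites with 321 reads and 30 minus-strand sites with 77 reads. In the fractions the corresponding counts were 50, 60, 34 and 15 sites, with 342, 404, 219 and 105 reads. The minus strand of the second interval was the poorest in both tables.

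Some of the pull-down sites had a counterpart in the fractions table, a larger share than among other chromosome 6 sites with as many reads. Within 24 nt on the same strand, 56 of the 188 sites (29.8%) had a counterpart, 36 of them at the same position, against 13.9% of the other chromosome 6 sites. Among sites with 1 read the share was 9.20% against 2.70%, among those with 2 to 4 reads 26.7% against 12.4%, and among those with 5 to 19 reads 50.0% against 33.8%. It was 93.3% against 71.1% at 20 to 99 reads, and all 3 members with 100 reads or more matched, against 91.5% of other sites with 100 to fewer than 500. Sites of the fractions table were also denser in the intervals (42.4 against 6.28 per 100 kb, with 25.6 between the intervals). The part of this density in these shares was not tested.

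**Figure D1:**
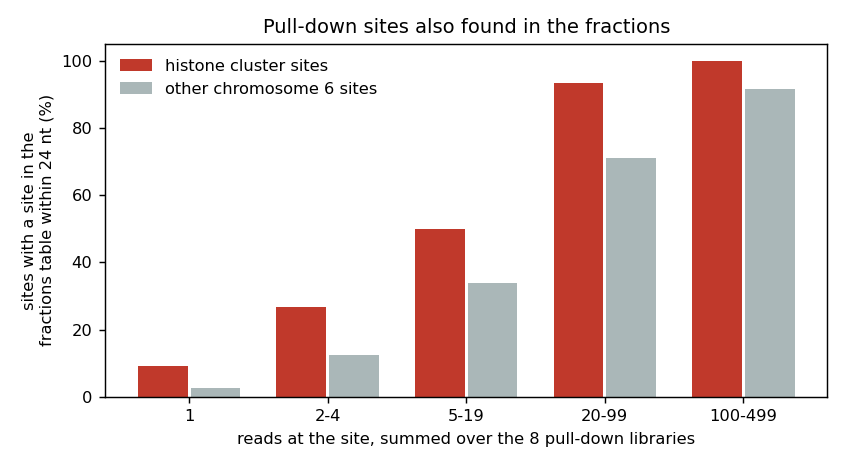
Share of pull-down sites (y axis, percent) that have a site of the fractions table within 24 nt on the same strand, by the site's reads summed over the 8 pull-down libraries (x axis), for the histone cluster sites (red) and all other chromosome 6 sites (grey). The red bar is the higher one in each of the 5 classes, from 9.20% against 2.70% at 1 read to 93.3% against 71.1% at 20 to 99 reads.

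The first comparison asked whether the histone cluster ends were carried into the STAU1 pull-down. Summed over all members, the STAU1 IP libraries had 35.2 and 35.4 CPM (35.3 ± 0.14, SD, n = 2) and the STAU1 inputs 47.0 and 39.9 CPM (43.4 ± 5.04, SD, n = 2). The GFP IP libraries had 62.2 and 40.1 CPM (51.1 ± 15.6, SD, n = 2) and the GFP inputs 54.8 and 59.8 CPM (57.3 ± 3.52, SD, n = 2). Both STAU1 IP libraries lay below both of their inputs, while the GFP IP libraries lay on either side of theirs. By library totals instead of TMM the STAU1 IP had 36.7 and 37.5 CPM and its inputs 47.1 and 36.4, which overlap. The log2 ratio of IP to input was -0.30 for STAU1 and -0.16 for GFP, against 0.04 and -0.30 for the other chromosome 6 sites and -0.49 and -0.42 for the stretch between the intervals. No p was computed for these sums. GFP IP values rest on 90 and 55 reads.

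The lower sum in the STAU1 IP came with 1 site. Without the most-read member, the STAU1 IP held 31.7 CPM and the input 28.6, a log2 ratio of 0.15, so the direction of the sum turned. The ratio for GFP without this site was -0.05. That site lies on the minus strand, where the STAU1 IP held 9.89 ± 0.002 CPM and the input 19.6 ± 4.96 (SD, n = 2 each), a log2 ratio of -0.99 against -0.06 for GFP. On the plus strand the ratios were 0.10 and -0.25.

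The intervals differed in their inputs as well. Mean levels of the first interval (n = 2 libraries each) were 29.5 CPM for the STAU1 IP against 37.7 for the matching input, and 42.6 for the GFP IP against 43.1 for the GFP input. Those of the second were 5.80 against 5.71 CPM and 8.52 against 14.2 CPM. In the second interval the inputs themselves stood apart: 3.59 and 7.84 CPM with STAU1-FLAG, 12.1 and 16.4 CPM with FLAG-GFP, a difference that was not tested. No member there passed the filter on low counts used for the tests below.

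**Figure D2:**
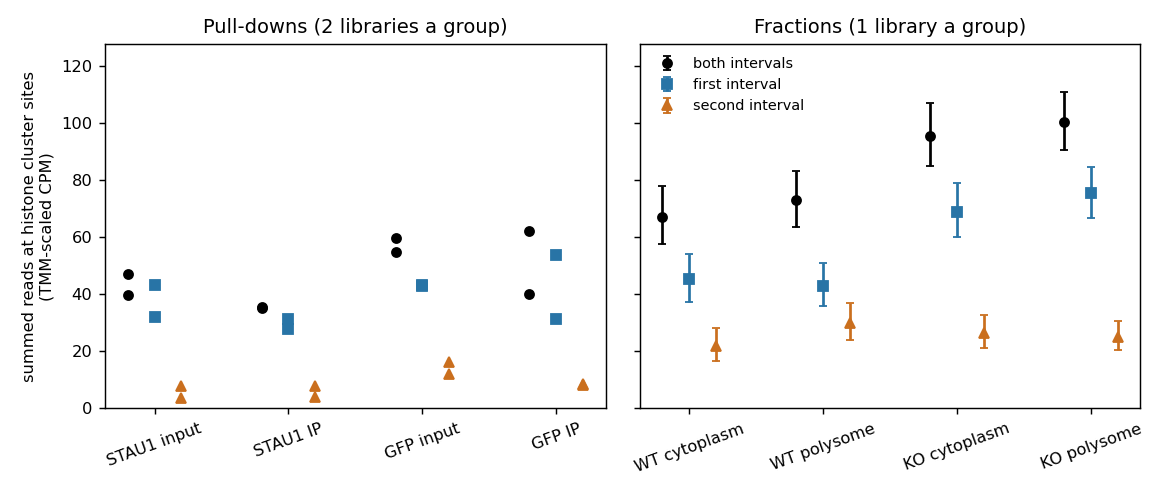
Reads summed over the histone cluster sites (y axis, TMM-scaled CPM) in each library, for both intervals (black circles), the first (blue squares) and the second (orange triangles). Points are single libraries, error bars in the fractions panel are exact 95% intervals for counting error, and the panels were scaled separately; both STAU1 IP circles (35.2 and 35.4) lie below both STAU1 input circles (47.0 and 39.9), and the KO circles (95.4 and 100.5) lie above the WT circles (67.1 and 72.9).

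For single sites, counts were tested over the whole pull-down table with edgeR's quasi-likelihood test. The Benjamini-Hochberg adjustment ran over the 33744 sites left by a filter on low counts. Of the 188 members, 6 passed. In STAU1 IP over input, 1 of them was lower at an adjusted p under 0.05 and 0 were higher, where 2.99% of all tested sites were lower and 3.06% higher. In GFP IP over input 0 of 6 were called, where 2.11% of all tested sites were higher and 3.99% lower (6.1% together). In the double ratio, which divides the STAU1 enrichment by the GFP enrichment, 0 of 6 were called, where 0.53% of all sites were higher and 0.157% lower (0.688% together), and between the inputs 0 of 6 against 0.00889%. At an unadjusted p under 0.05, edgeR's quasi-likelihood test gave 2, 1, 1 and 0 of the 6 members in these 4 comparisons. Of all tested sites, 19.2%, 16.6%, 11.1% and 4.02% were under it. The minus-strand site at 26281282 was 1 of the 2 in STAU1 IP over input. It was the only such member in GFP IP over input and in the double ratio. Its reads were 17 in GFP IP replicate 1, 23 in STAU1 input replicate 2 and 1 in GFP input replicate 1. Single libraries therefore decide the p-values of this site. DESeq2 gave an adjusted p for 5, 3, 1 and 0 of the 6 members, and among those called only the lower one in STAU1 IP over input. With 6 members tested, these counts say little of the clusters as a whole.

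The median log2 change of the 6 tested members in STAU1 IP over input was 0.28, against 0.12 for all tested sites and -0.04 for 1388 other tested sites of chromosome 6. For GFP it was -0.15 against -0.16 and -0.24, or -0.05 with a site whose GFP IP libraries were both at 0 set to its limit. For the double ratio it was -0.49 against 0.30 and 0.26, and between the inputs -0.01 against -0.08 and -0.13. Across the alternative analyses the STAU1 median of members ran from -0.91 to 0.41, so it has no settled sign, and the other 3 medians took both signs as well.

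The member that was called is the minus-strand site at position 26055935, the most-read end of the clusters with 493 reads. Its reads were 22 and 23 in the STAU1 IP against 113 and 82 in the STAU1 input. They were 12 and 17 in the GFP IP against 117 and 107 in the GFP input. Scaled, these were 3.40 and 3.79 CPM for the STAU1 IP (3.59 ± 0.28, SD, n = 2) and 20.3 and 9.32 CPM for its input (14.8 ± 7.75, SD, n = 2). The GFP IP had 8.29 and 12.4 CPM (10.3 ± 2.90, SD, n = 2) and the GFP input 16.6 and 13.7 CPM (15.2 ± 2.04, SD, n = 2). The STAU1 IP values were the lowest of the 8 and did not overlap with any other group. Both GFP IP values lay below both of their own inputs as well.

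In edgeR's quasi-likelihood test this site fell by 2.03 on the log2 scale in STAU1 IP over input (SE 0.55, Benjamini-Hochberg adjusted p = 0.0328). In GFP IP over input its log2 change was -0.55 (SE 0.56, edgeR adjusted p = 0.685). The difference between the 2, the double ratio, was -1.47 (SE 0.77, edgeR adjusted p = 0.505), so a lower value in the STAU1 pull-down than in the GFP pull-down was not shown. Between the inputs the log2 difference was -0.04.

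Its call rests on few libraries. Without STAU1 input replicate 1, the library with the fewest sites of the inputs, the log2 change was -1.37 and the edgeR adjusted p 0.269. Without STAU1 IP replicate 1 or 2 the adjusted p was 0.161 and 0.0977, and without GFP input replicate 1 or 2 it was 0.0612 and 0.0589 at an unchanged log2 of -2.03. The direction was lower in each of these fits.

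Beside other sites of chromosome 6 with similar reads (0.8 to 1.25 times as many), the same site lay near the low end. Of 95 such sites, 4 had a lower log2 change in STAU1 IP over input and 91 a higher one, with a median of -0.14. Among these 95 sites, 4 were called higher and 3 lower. In the double ratio 4 lay below it and 91 above, with a median of 0.22, while in GFP IP over input 34 lay below and 61 above.

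The next most-read ends are on the plus strand of the first interval. The site at 26175510 had 54 and 58 reads in the STAU1 IP against 39 and 46 for the matching input, and 9 and 0 in the GFP IP against 43 and 64 in its input. The STAU1 IP libraries, at 8.34 and 9.56 CPM, lay above both of their inputs at 7.0 and 5.23. The GFP IP libraries were at 6.22 and 0 CPM, where 0 reads allow up to 2.19, against 6.11 and 8.21 for the GFP inputs. Its log2 change was 0.55 in the STAU1 pull-down (SE 0.78, edgeR adjusted p = 0.767) and -1.18 in the GFP pull-down (SE 0.91, edgeR adjusted p = 0.567). The double ratio was 1.73 (SE 1.20, edgeR adjusted p = 0.657). The STAU1 groups did not overlap at this site, but the difference did not pass the test. Of 112 chromosome 6 sites with similar reads, 20 had a higher STAU1 value and 15 a higher double ratio.

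The site at 26139336 had 52 and 14 reads in the STAU1 IP against 28 and 46 for the matching input, and 10 and 6 in the GFP IP against 18 and 54 in the GFP input. The replicates spread so widely, 8.03 and 2.31 CPM within the STAU1 IP and 2.56 and 6.93 within the GFP input, that each group overlapped with the others or spanned them. Its log2 change was 0.01 in the STAU1 pull-down (SE 0.81), 0.25 in the GFP pull-down (SE 0.87) and -0.23 in the double ratio (SE 1.19), none past the test.

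**Figure D3:**
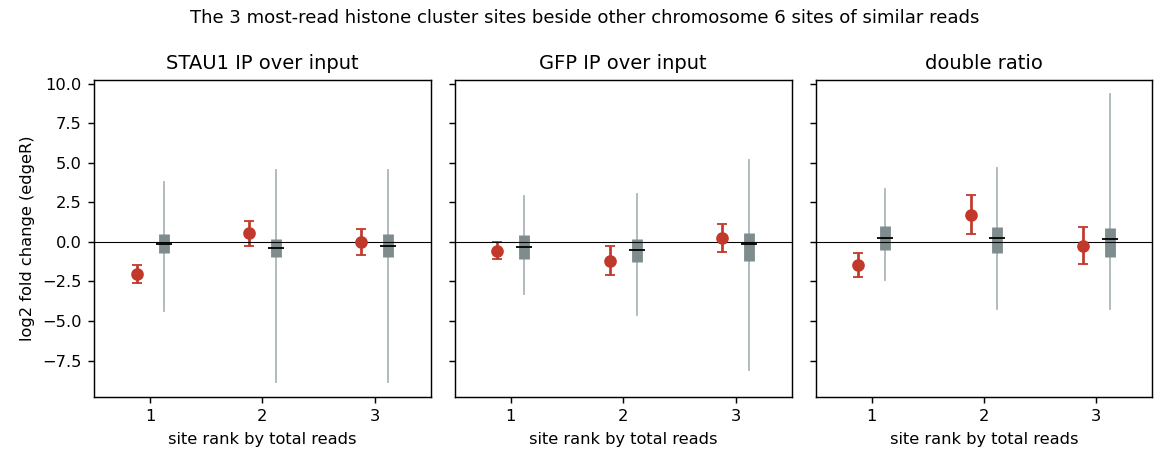
Log2 fold change from edgeR (y axis) of the 3 most-read histone cluster sites (red points, error bars are SE), ranked by reads (x axis), beside the other chromosome 6 sites of similar reads (grey: thick bar from the lower to the upper quartile, thin line the full range, dash the median). The first site, at 26055935, lies below its neighbours' quartiles in the STAU1 pull-down (-2.03 against a median of -0.14) and in the double ratio (-1.47 against 0.22).

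The other 3 tested members were uneven between replicates. The plus-strand site at 26227699 had 6 and 10 reads in the STAU1 IP against 0 and 13 for the matching input, and 1 and 5 in the GFP IP against 7 and 4 in the GFP input. The minus-strand site at 26281282 had 17 reads in GFP IP replicate 1 and 23 in STAU1 input replicate 2, 1 read in GFP input replicate 1 and none in the other 5 libraries. The plus-strand site at 26171574 had 10 reads in STAU1 IP replicate 2, 5 in STAU1 input replicate 2 and 18 and 2 in the GFP input. At the last 2 sites a single library held most reads of its group, and no fold is given.

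Such concentration of reads in 1 library was common at middle depths. Among members with 5 to 19 reads, 14 of 38 (36.8%) had every read in a single library, against 32.8% of the other chromosome 6 sites of that class. Of these 14 sites, 10 belonged to a GFP input library, 2 to a STAU1 IP, 1 to a STAU1 input and 1 to a GFP IP. For the other chromosome 6 sites this split by group was not made. The highest was the plus-strand site at 27820040 with 9 reads, all in STAU1 IP replicate 2. At 2 to 4 reads the shares were 60.0% and 46.3%, and at 20 to 99 reads 0 of 15 members and 3.11% of other sites. At such sites 1 library decides the value of its group.

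**Figure D4:**
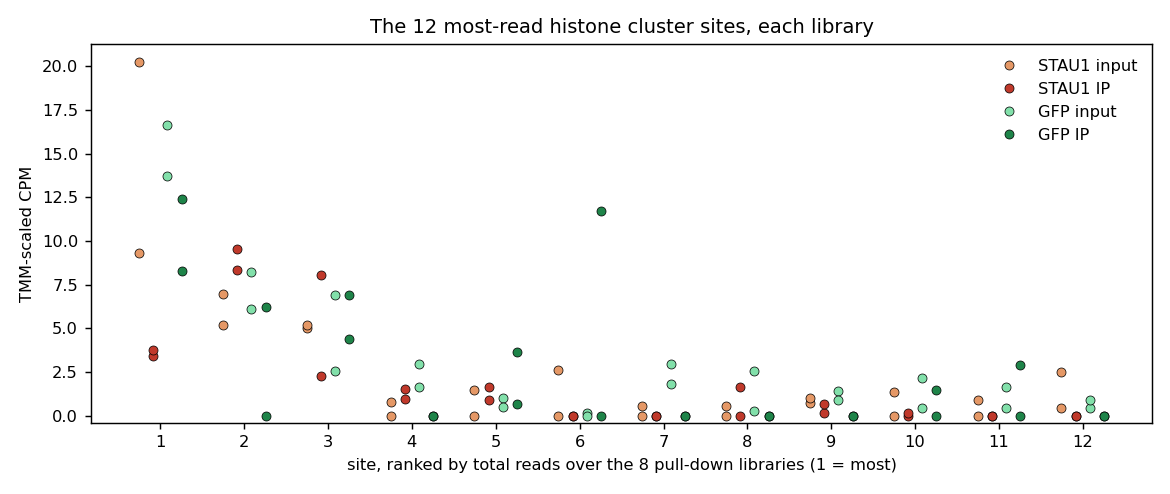
TMM-scaled CPM (y axis) in each of the 8 pull-down libraries at the 12 most-read histone cluster sites, ranked by total reads (x axis); each point is 1 library and colours mark the 4 groups. At the first site both STAU1 IP points (3.40 and 3.79) lie below all others, and from the fourth site on most points lie under 3 CPM, with 1 GFP IP point at 11.8 for the sixth, at 26281282.

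When members were summed by depth class, the summed STAU1 ratios from 5 reads up lay below those of chromosome 6 sites of the same class. In the highest class this came with 1 site. At 100 to fewer than 500 reads, 3 members together had a log2 IP over input of -0.56 for STAU1 and -0.50 for GFP, against 0.00 and -0.07 for 517 other sites. At 20 to 99 reads, 15 members had -0.46 and -0.10, against 0.22 and -0.11. At 5 to 19 reads, 38 members had 0.15 and -0.49, against 0.72 and 0.02. In the first and the third of these classes the GFP ratio of members also lay below that of other sites. The first holds the site at 26055935, the only one of its 3 members with a lower mean CPM in the STAU1 IP than in its input. The other members had 8.95 against 6.11 CPM at 26175510 and 5.17 against 5.12 CPM at 26139336. The stretch between the intervals gave -0.32, -0.39 and 0.28 for STAU1 in these 3 classes, closer to the members than the rest of the chromosome. Among the 87 members with 1 read, the STAU1 ratio lay above that of other sites (1.10 against 0.62), as did GFP (1.25 against 0.62). At 2 to 4 reads it was 0.65 against 0.86 for STAU1, and 0.93 against 0.87 for GFP. No test was made of these sums.

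Of the members seen in a group, 13 of 72 in the STAU1 IP (18.1%), 3 of 43 in the GFP IP (6.98%), 9 of 63 in the STAU1 input (14.3%) and 23 of 99 in the GFP input (23.2%) had reads in both of its libraries. For other chromosome 6 sites the shares were 20.6%, 21.2%, 15.6% and 18.1%, so members stood below the others in the GFP IP and near them in the STAU1 IP and its input. The GFP input reached the most members, 99 of 188. Of the 33449 other chromosome 6 sites it reached 14459, slightly fewer than the 14766 of the STAU1 IP.

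Alternative ends of 1 transcript could not be tested here. Joining sites of the same strand that lay no more than 5000 nt apart gave 50 runs, 18 of them with 1 site, and no run had a pair of leading sites with a mean of at least 10 reads each. As a description, the site at 26055935 took 98.4% of the 501 reads in its run of 5 sites, and that at 26175510 took 81.3% of 385 reads in a run of 8. The site at 26139336 took 91.2% of 250 reads and shared its run with 1 other site 153 nt away. That second end was seen mainly in STAU1 input replicate 1, where the leading site held 28 of 49 reads (57.1%). The first interval's best-read runs were thus led by 1 end each.

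The second interval's runs were more even. A plus-strand run of 15 sites led by 27779092 held 141 reads, 28.4% of them at the leading site. It had 0 and 2 reads in the STAU1 IP and 0 and 35 for its input, but 7 and 6 in the GFP IP and 32 and 59 in the GFP input. Scaled, this was 0 and 0.330 CPM for the STAU1 IP and 4.84 and 4.37 CPM for the GFP IP, so the STAU1 IP libraries were below both GFP IP libraries, while STAU1 input replicate 1 was at 0 as well. A run of 6 sites led by 27823352 held 125 reads, 45.6% at its leading site, with 11 and 27 reads in the STAU1 IP against 0 and 13 for the matching input, and 0 and 0 in the GFP IP against 40 and 34 in the GFP input. Here the STAU1 IP had 1.70 and 4.45 CPM and the GFP IP had no reads, which allows up to 2.07 and 2.19 CPM. One STAU1 IP library therefore lay within what the GFP IP allows. Both runs were singled out after their values were seen, and neither was tested.

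The second comparison set polysomal against cytoplasmic RNA in wild-type and knockout cells, with 1 library each, so differences have no replicate check. Summed over members, the wild type had 67.1 CPM in the cytoplasm (175 reads) and 72.9 in polysomes (219 reads), and the knockout 95.4 (292 reads) and 100.5 (384 reads). Polysome over cytoplasm on the log2 scale was 0.12 in the wild type (95% counting interval -0.17 to 0.41) and 0.07 in the knockout (-0.15 to 0.30). Knockout minus wild type was -0.05 (-0.42 to 0.33). Both ratios lay slightly above those of other chromosome 6 sites, -0.08 in each genotype, and both intervals include those values. With library totals in place of TMM the ratios were 0.38 and 0.29, and those of other chromosome 6 sites 0.17 and 0.14.

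Between genotypes the members held more reads in the knockout. In the cytoplasm the knockout was 1.42-fold higher (log2 0.51, counting interval 0.23 to 0.79), and in polysomes 1.38-fold (log2 0.46, 0.22 to 0.71). Other chromosome 6 sites gave 0.03 and 0.04, and the stretch between the intervals 0.11 and 0.17. In polysomes the first interval carried the difference, with log2 0.81 (0.51 to 1.12) against -0.25 (-0.68 to 0.18) for the second. In the cytoplasm they had 0.61 (0.28 to 0.94) and 0.28 (-0.23 to 0.79), with counting intervals that overlap. Most of the difference over all members came from 3 sites. The 3 most-read members, chosen by their reads in these same libraries, had log2 1.10 in both fractions. The others had 0.20 (-0.14 to 0.54) and 0.08 (-0.22 to 0.39). Of the 3 most-read, the site at 27792257 lies in the second interval. The knockout is 1 line with 1 library per fraction, so genotype, clone and library cannot be told apart.

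The site at 26055935 also led the fractions, with 53 reads in knockout cytoplasm, 30 in wild-type cytoplasm, 117 in knockout polysomes and 31 in wild-type polysomes. These are 17.3, 11.5, 30.6 and 10.3 CPM, with the knockout polysomes the highest. Polysome over cytoplasm was -0.16 on the log2 scale in the wild type (-0.93 to 0.62) and 0.82 in the knockout (0.34 to 1.32), a difference of 0.98 (0.05 to 1.90). Of 73 chromosome 6 sites with similar reads, 72 had a smaller difference. The same site was lower in the STAU1 pull-down than in its input, but both GFP IP values also lay below their inputs. Its double ratio did not pass the test (edgeR adjusted p = 0.505). In the knockout, with 1 library per fraction, the site was higher in polysomes than in cytoplasm. A link between these results was not tested. Knockout over wild type on the log2 scale was 1.57 in polysomes (0.99 to 2.19) and 0.59 in the cytoplasm (-0.08 to 1.29).

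At the site at 26175510 the larger value of knockout over wild type was in the cytoplasm, with intervals that overlap. It had 42 and 11 reads in knockout and wild-type cytoplasm (13.7 and 4.22 CPM) and 30 and 12 in the polysomes (7.85 and 4.00 CPM). Knockout over wild type was 1.70 on the log2 scale in the cytoplasm (0.72 to 2.81) and 0.97 in polysomes (-0.03 to 2.07). Polysome over cytoplasm was -0.08 in the wild type and -0.81 in the knockout, and their difference of -0.73 had an interval from -2.25 to 0.79.

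The plus-strand site at 27792257 had 26 and 28 reads in knockout cytoplasm and polysomes and 7 and 21 in those of the wild type. Its knockout minus wild type difference in log2 polysome over cytoplasm was -1.59 (-3.29 to -0.01), and 9 of 129 sites with similar reads lay lower. The plus-strand site at 26202921 had 9 and 19 reads in the knockout and 21 and 7 in the wild type, so the log2 ratio was 0.76 in the knockout and -1.79 in the wild type. Its difference of 2.55 (0.67 to 4.48) was larger than at 160 of 163 sites with similar reads. These 2 sites moved in opposite directions.

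The plus-strand site at 26158834 was higher in polysomes in both genotypes, with 4 and 16 reads in the wild type and 6 and 20 in the knockout. Its log2 ratios were 1.80 (0.16 to 3.84) and 1.42 (0.05 to 3.02). The minus-strand site at 27858094 had 14 and 17 reads in the wild type and 14 and 10 in the knockout, and both of its intervals include 0. The minus-strand site at 26281282, uneven in the pull-downs, had 12 and 15 reads in the knockout and 2 and 2 in the wild type, a log2 knockout over wild type of 2.35 in the cytoplasm (0.19 to 5.56) and 2.56 in polysomes (0.45 to 5.73). The other 5 of the 12 most-read members, at 26139336, 27861667, 27823352, 26188939 and 27775258, had 23 to 31 reads each, and the interval of every polysome over cytoplasm ratio among them included 0.

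**Figure D5:**
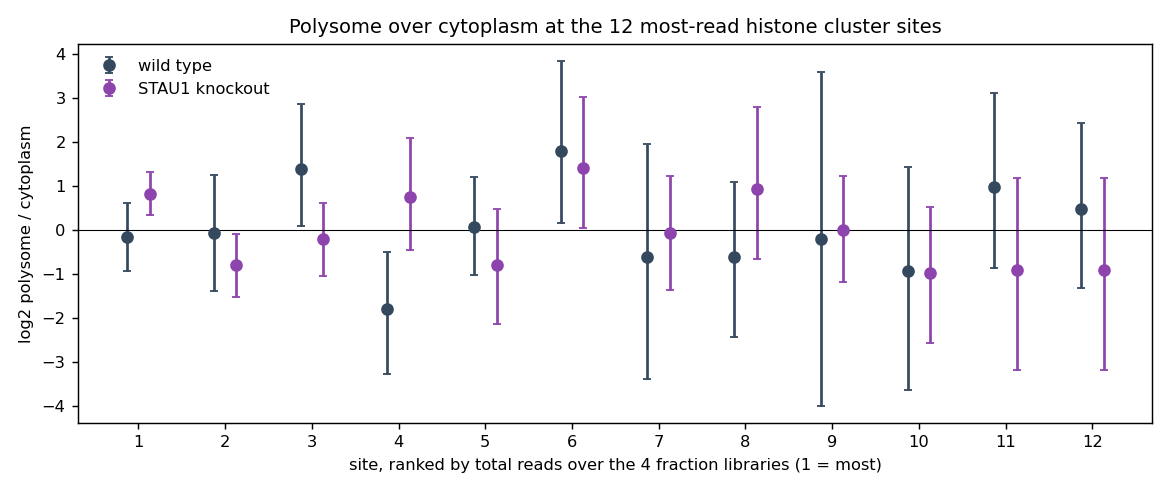
Log2 ratio of polysomal to cytoplasmic TMM-scaled reads (y axis) at the 12 most-read histone cluster sites of the fractions table, ranked by total reads (x axis), in the wild type (dark blue) and STAU1 knockout (purple), 1 library each. Error bars are 95% intervals for counting error; at the first site, 26055935, the knockout is at 0.82 and the wild type at -0.16, and at the fourth, 26202921, they are at 0.76 and -1.79.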

How the data were processed

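The 12 libraries of 3'READS+ comprise 8 of pull-downs and 4 of fractions. The authors deposited a table of raw counts of reads at each poly(A) site, not normalized, for each of these sets. Per the submitters' processing notes, STAR was used and the build is hg19. The version, the read filters and how sites were clustered are not given in the sources used here.

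Members were taken by position. The test of single sites was edgeR's quasi-likelihood test (version 4.0.16, R 4.3.3) with group as the only term, on all 8 pull-down libraries. Libraries were scaled by TMM, low sites were removed with filterByExpr, and p-values were adjusted by Benjamini-Hochberg over the 33744 sites left, with a threshold of 0.05. The filter kept sites with enough reads for the depth in at least 2 libraries, the size of a group, whichever groups these came from. A site could thus pass through 1 group, or through single libraries of different groups. The site at 26281282, for example, had 17 reads in GFP IP replicate 1 and 23 in STAU1 input replicate 2. DESeq2 1.42.0, other scalings, no filter, a replicate block and leaving out each library were alternatives. Same-numbered libraries were not treated as pairs.

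The fractions have 1 library each and were not tested. Ratios carry 95% intervals for counting error, conditional on the summed counts. The minimum of 50 reads in each fraction library that was set for single sites left no member, so summed reads are the main value and single sites are descriptions.

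Sites are named by strand and position. The rule named every called member, up to 12 tested members in the pull-downs (6 passed the filter) and the 12 most-read members in the fractions. Other pull-down sites named were chosen after their values were seen. The members, lists and comparisons were chosen with earlier results of these data known. No genome of the files' build was used here, so no sequences or gene names are given for sites.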

Additional observations from a re-analysis of the deposited data

Results flagged for a closer look

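Untested sites among the 12 most-read were flagged if both IP libraries lay outside both inputs, in opposite directions for STAU1 and GFP. The plus-strand site 27823352 met this rule, so its opposite directions are what it was chosen for. The STAU1 IP libraries had 10 and 6 reads and their inputs 0 and 7, and the STAU1 IP mean was 0.869 CPM above the input mean. The GFP IP libraries had 0 reads each and their inputs 21 and 13, and the GFP IP mean minus the input mean was -2.33 CPM. The difference was not tested, since the site did not pass the filter on low counts. The floor of 3 reads over both GFP IP libraries is 1.06 CPM. In the single GFP IP libraries 0 reads allow up to 2.07 and 2.19 CPM, above both STAU1 IP values of 1.55 and 0.989. Both limits also lie above GFP input replicate 2, at 1.67 CPM.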

How the results depend on the processing

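The 1 lower call in STAU1 IP over input, at 26055935, became 0 calls with no filter on low counts (log2 -2.22, edgeR adjusted p = 0.303) and ranged from 0 to 1 when a library was left out. It was kept with the other scalings, with DESeq2 (adjusted p = 0.0287) and with the replicate block (log2 -1.99, adjusted p = 0.0262), which called no other member. DESeq2 gave no member an adjusted p between the inputs. Same-numbered libraries did not deviate together (r from -0.20 to 0.09 over 5812 sites). These correlations cannot show whether such libraries shared a culture, and the labels do not say. Summed reads in the STAU1 IP were 37.1 CPM by library totals, 39.1 without mitochondrial reads in the totals and 31.7 without the most-read member. The STAU1 input had 28.6 without that member, and the GFP input 51.4 by totals and 42.1 without it. Leaving out a library gave 35.2 to 35.4 for the STAU1 IP, 39.9 to 47.0 for its input, 40.1 to 62.2 for the GFP IP and 54.8 to 59.8 for the GFP input. Polysome over cytoplasm in the knockout was 0.82, and knockout minus wild type 0.98, at a minimum of 20 reads in each library or 100 in all, each of which left 1 member. Without the most-read member, an alternative chosen after seeing the data, the knockout ratio was -0.16. The cause of these shifts, beyond the sites left, was not tested.

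Over all sites, edgeR called 1032 higher and 1008 lower in STAU1 IP over input, 1417 and 834 by library totals, and 319 and 853 with no filter. For GFP these were 711 and 1348, 1211 and 751, and 205 and 1768. In the double ratio, 179 and 53 became 389 and 123 with the replicate block and 425 and 316 with DESeq2. Scaling by library totals moved the median of all tested sites from -0.16 to 0.13 for GFP and from 0.12 to 0.26 for STAU1. Depth limits most members: 182 of 188 did not reach the filter.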
